A study of Mus musculus with 12 samples.

Results

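Annexins and S100 proteins are calcium-regulated partner families, and 28 of their genes were measured here in mouse embryonic stem (ES) cells: 12 annexin genes, 15 S100 genes and S100pbp. S100pbp encodes a nuclear protein named for binding S100P, which is not among the 15 S100 genes. The genes were taken by name, as every probe whose gene name on the array is Anxa or S100a followed by a number, or S100b, S100g or S100pbp. These 37 probes were among 41174 on the array, and the 28 genes among 21169 that could be named. The ES cells were undifferentiated or had been given retinoic acid for 3 days, a vitamin A product that works through nuclear receptors. The line, its genotype, the culture medium and the dose and isomer of retinoic acid are not given in the sources used here. Total RNA of 3 biological samples per group was amplified, labelled with Cy3 and hybridised to 2 technical arrays per sample, 12 arrays in all, to set the transcripts of both states against each other. The labels call them biological replicates and say no more of their origin; where they share a culture, the p-values reflect only technical spread among these samples.

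Annexins bind acidic phospholipids of membranes when calcium is present, and they take part in membrane repair, exocytosis, endosome traffic and the anchoring of the actin cortex. S100 proteins are small dimers that bind calcium through EF-hands, the helix-loop-helix calcium sites they share with calmodulin, and many of them dock onto annexins. S100a10, which no longer responds to calcium, forms a stable complex with Anxa2, S100a11 binds Anxa1, and S100a6 binds Anxa11. Most S100 genes lie next to each other in 1 cluster, on mouse chromosome 3 in RefSeq's GRCm38.p6 annotation, while the annexin genes are scattered over the genome.

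Values below are log2 of the quantile-normalized intensity plus 50, read on the brightest probe of each gene, with the 2 technical arrays of a sample averaged. The added 50 makes the change of a dim gene look smaller than it was. The level of one probe says nothing about that of another, so levels are compared only within a gene. The summed intensities of cell markers below are the exception. Calls were made in limma where p, adjusted by Benjamini-Hochberg over all 15322 genes bright enough to test, was under 0.05.

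After retinoic acid, 9 of the 22 genes of both families that were bright enough to test rose, 2 fell and 11 were not called. Anxa1, Anxa2, Anxa3, Anxa4 and Anxa5 rose and Anxa11 fell among 11 annexins tested. S100a1, S100a11, S100a13 and S100g rose and S100a10 fell among 10 S100 genes tested, and S100pbp was not called. Of all genes tested, 18.7% were called higher and 13.6% lower, 32.3% in all. The median change was 0.24 for the annexins and 0.29 for the S100 genes, against 0.0035 for all genes. The other 6 genes (Anxa10, S100a5, S100a7a, S100a8, S100a14 and S100b) were too dim to test. With 3 samples per group, the number of samples limits the precision of all values.

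**Figure D1:**
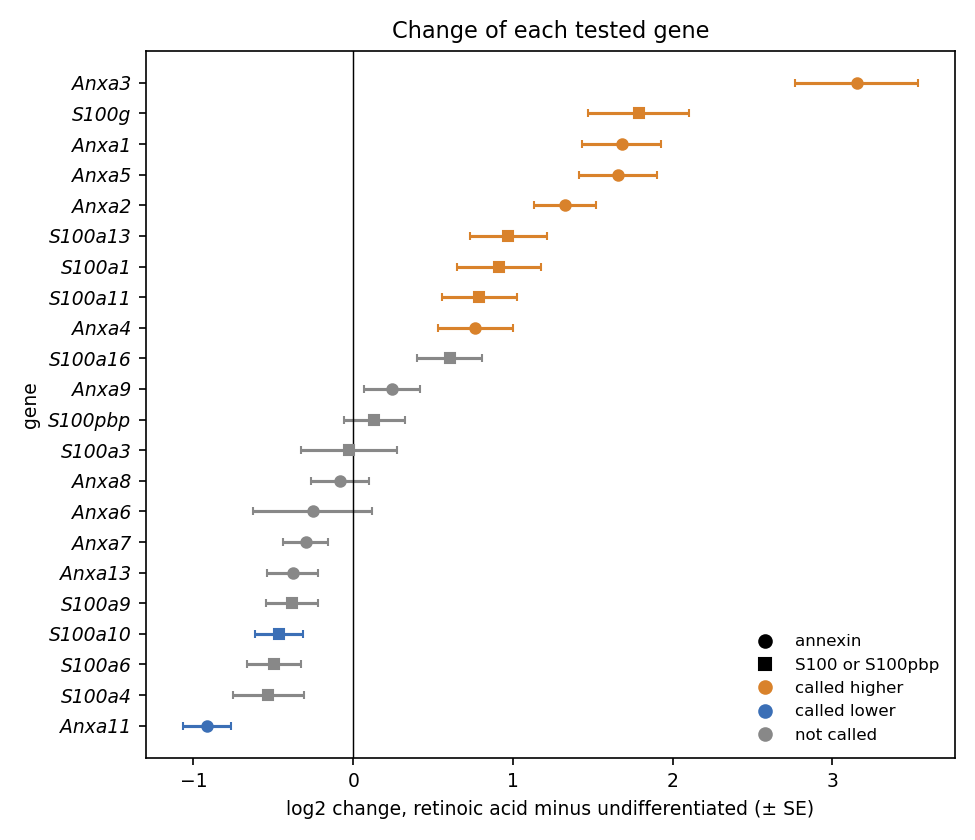
Log2 change of each tested gene, retinoic acid minus undifferentiated, with its standard error (3 samples per group); circles are annexins and squares S100 genes or S100pbp, and colour shows the call. Anxa3 lies farthest to the right (3.15) and Anxa11 farthest to the left (-0.92).

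The sequences just upstream of the start sites are shown for 6 called genes of both families that differ in what these stretches hold. RefSeq's GRCm38.p6 promoter table held 31 start sites for 23 of the 28 genes; Anxa3, Anxa6, Anxa13, S100a10 and S100a14 were not matched. Each line gives the 250 bases before the start, 5′ to 3′ on the gene's own strand. Capitals mark AGGTCA (a half-site, only a part of the elements that nuclear receptors such as the retinoic acid receptors bind), TGANTCA (AP-1), GGGCGG (the GC box) and TATAAA (the TATA box). All were searched on both strands. The N of TGANTCA was any base, which is looser than the AP-1 consensus. No 2 of the matches shown overlapped. The stretch of S100g is chrX:162964600-162964849 (minus strand), that of S100a11 chr3:93520246-93520495 (plus), that of Anxa2 chr9:69453433-69453682 (plus), that of Anxa1 chr19:20390672-20390921 (minus), that of Anxa5 chr3:36475888-36476137 (minus) and that of Anxa11, which fell, chr14:25841905-25842154 (plus).
S100g: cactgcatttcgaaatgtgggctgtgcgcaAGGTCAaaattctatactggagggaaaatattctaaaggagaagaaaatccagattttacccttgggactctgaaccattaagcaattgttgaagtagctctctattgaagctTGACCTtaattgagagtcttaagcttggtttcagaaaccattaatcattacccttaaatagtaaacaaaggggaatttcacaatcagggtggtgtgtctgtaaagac
S100a11: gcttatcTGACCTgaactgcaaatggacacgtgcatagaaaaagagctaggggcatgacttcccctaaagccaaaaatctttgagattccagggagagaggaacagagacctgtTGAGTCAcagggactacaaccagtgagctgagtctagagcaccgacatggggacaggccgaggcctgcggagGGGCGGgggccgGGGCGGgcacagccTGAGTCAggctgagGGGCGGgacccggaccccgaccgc
Anxa2: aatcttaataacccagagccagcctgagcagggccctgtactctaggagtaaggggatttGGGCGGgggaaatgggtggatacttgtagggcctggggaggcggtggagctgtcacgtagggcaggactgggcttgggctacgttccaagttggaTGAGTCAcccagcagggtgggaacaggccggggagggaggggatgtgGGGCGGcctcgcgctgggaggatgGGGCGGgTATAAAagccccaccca
Anxa1: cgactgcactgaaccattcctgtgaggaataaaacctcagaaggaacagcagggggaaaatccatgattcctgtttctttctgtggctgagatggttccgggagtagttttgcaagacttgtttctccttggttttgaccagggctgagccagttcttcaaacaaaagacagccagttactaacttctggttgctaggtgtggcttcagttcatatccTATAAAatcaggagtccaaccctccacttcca
Anxa5: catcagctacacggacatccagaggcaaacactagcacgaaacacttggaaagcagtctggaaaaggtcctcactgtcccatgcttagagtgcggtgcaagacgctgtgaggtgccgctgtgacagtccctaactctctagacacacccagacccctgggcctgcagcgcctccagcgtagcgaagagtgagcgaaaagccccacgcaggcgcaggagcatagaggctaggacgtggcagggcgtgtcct
Anxa11: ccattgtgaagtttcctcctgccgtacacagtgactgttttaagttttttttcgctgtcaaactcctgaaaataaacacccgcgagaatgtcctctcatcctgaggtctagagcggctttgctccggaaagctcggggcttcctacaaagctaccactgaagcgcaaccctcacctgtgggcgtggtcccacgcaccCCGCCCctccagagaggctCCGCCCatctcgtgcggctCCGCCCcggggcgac

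AGGTCA was found in 6 of the 31 stretches (19.4%), against 14% of all 32851 in the table. S100g carried it at 220 to 215 and, reversed, at 107 to 102 bases before the start, and S100a11 once, reversed, at 243 to 238; S100a3, S100a4 and S100a16, which were not called, carried it too. TGANTCA was in 4 stretches (12.9%, against 6.7% of all), 2 times in that of S100a11 and in that of Anxa2 at 95 to 89 bases before the start. The others were those of Anxa10, which was not tested, and S100a16, which was not called. It read TGAATCA in S100a16 and TGAGTCA in Anxa2, Anxa10 and S100a11. TATAAA stood at 32 to 27 bases before the start of Anxa1 and at 17 to 12 in Anxa2, and was in 19.4% of the members' stretches against 12.4% of all. Anxa10, S100a3, S100a4 and S100a8, which were untested or not called, carried it too. The stretches of Anxa4, S100a1 and S100a13, which rose and are not among the 6 shown, held none of the motifs. GC boxes were in 32.3% against 32.7%; Anxa11 had 3, all reversed, and Anxa1, Anxa5 and S100g had none. CpG dinucleotides numbered 2 in the stretches of Anxa1 and S100g, 13 in that of Anxa5 and 17 in that of Anxa11, with a median of 6 over the whole table. A match describes these letters only, and no match says nothing of the factor.

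Anxa3, an annexin abundant in neutrophils and in several epithelia, changed most. It was at 8.59, 9.81 and 8.23 in undifferentiated replicates 1, 2 and 3 and at 11.85, 12.34 and 11.91 after retinoic acid. All 3 treated samples lay above all untreated ones, which were themselves spread over more than 1 log2 unit, with replicate 2 highest in both groups. The means were 8.88 ± 0.83 (SD, n = 3) and 12.03 ± 0.27 (SD, n = 3), a rise of 3.15 ± 0.38 (SE; limma, adjusted p = 0.000676) or 8.88-fold. This is the value of 1 probe. The other probe named Anxa3, which the array annotates to a cDNA clone with no classified product, was above background on 0 of 12 arrays, and averaging both probes gave a change of 1.57.

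Anxa1, the anti-inflammatory annexin induced by glucocorticoids, went from 9.49, 8.98 and 8.80 to 10.60, 11.17 and 10.55 in replicates 1, 2 and 3. All 3 treated samples were above all untreated ones by about 1 log2 unit or more. The rise was 1.68 ± 0.25 (SE; limma, adjusted p = 0.00165), or 3.20-fold.

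Anxa5, the phosphatidylserine binder used to stain dying cells, went from 9.05, 9.73 and 9.46 to 10.66, 11.30 and 11.26. The groups were again apart, with replicate 1 lowest in both. Its rise was 1.66 ± 0.24 (SE; limma, adjusted p = 0.00171), or 3.15-fold.

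Anxa2, which anchors actin at the plasma membrane and, with S100a10, gathers plasminogen and its activator at the cell surface, went from 9.57, 8.92 and 9.22 to 10.54, 10.51 and 10.64. The treated samples were nearly equal, the untreated ones more spread, and the groups apart. The rise was 1.32 ± 0.19 (SE; limma, adjusted p = 0.00161), or 2.50-fold. A dimmer probe of Anxa2 went from 8.90, 8.14 and 8.44 to 9.64, 9.22 and 9.72, with groups that did not overlap and a rise of 1.04 (limma with each probe tested by itself, adjusted p = 0.0164).

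Anxa4, common in secretory epithelia, was at 7.98, 8.54 and 7.64 before and 8.86, 8.70 and 8.89 after. The groups did not overlap, but replicate 2 of the undifferentiated group came close to the treated samples. The rise was 0.77 ± 0.23 (SE; limma, adjusted p = 0.04). The call was lost without any single sample except undifferentiated replicate 2, with changes of 0.56 to 1.01 over the 6 fits. A second probe differed by 0.56 (limma with each probe tested by itself, adjusted p = 0.055), and a further one, above background on 1 of 12 arrays, by -0.04.

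Anxa11, which tethers RNA granules to lysosomes, went the other way. It was at 11.27, 11.34 and 11.31 in undifferentiated cells and 10.53, 10.42 and 10.22 after retinoic acid. The untreated samples were nearly equal and all 3 treated ones lay below them. The fall was -0.92 ± 0.15 (SE; limma, adjusted p = 0.00277), or 1.89-fold. S100a6, its known binding partner, differed by -0.50 ± 0.17 (SE) and was not called (limma, adjusted p = 0.0563).

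**Figure D2:**
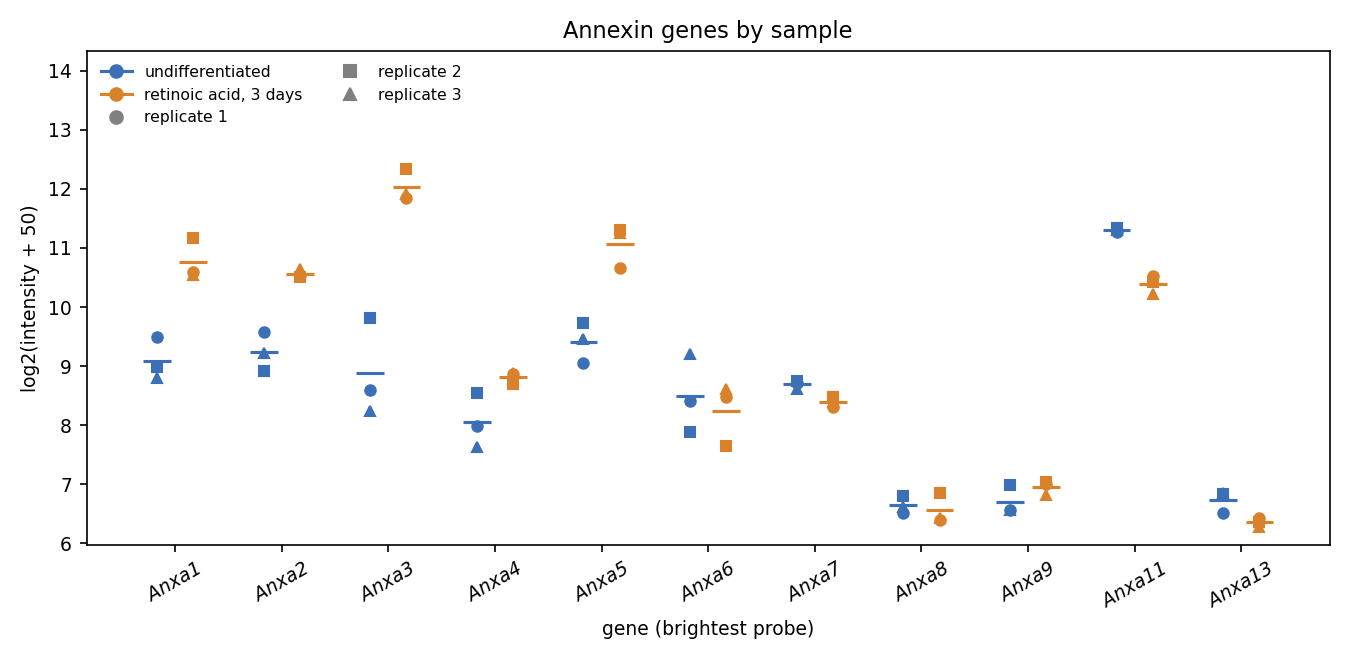
Log2(intensity + 50) of the 11 tested annexin genes in each biological sample (technical arrays averaged); short lines are group means and symbols are replicates. The orange treated samples stand clear of the blue untreated ones in Anxa1, Anxa2, Anxa3 and Anxa5, Anxa11 is lower after treatment, and in Anxa6 the replicates of both groups are mixed.

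The remaining 5 tested annexins were not called. Anxa6, the annexin with a duplicated core, was at 8.41, 7.89 and 9.20 before and 8.48, 7.65 and 8.61 after. On this brightest probe the groups overlapped throughout, and replicate 2 was lowest in both. The difference was -0.25 ± 0.37 (SE; limma, adjusted p = 0.657), and it was 0.10 without undifferentiated replicate 3 and 0.04 without retinoic acid replicate 2. A dimmer probe of Anxa6 went from 6.56, 6.54 and 6.64 to 6.26, 6.49 and 6.22, with groups that did not overlap. It differed by -0.26 and was not called (limma with each probe tested by itself, adjusted p = 0.249).

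Anxa7 (synexin), which promotes membrane fusion, went from 8.71, 8.75 and 8.61 to 8.30, 8.48 and 8.39. The groups did not overlap, but the difference was small (-0.30 ± 0.14, SE; limma, adjusted p = 0.152). Its other probes differed by -0.60, with overlapping groups, and by -0.65, with groups apart, also without a call (limma with each probe tested by itself, adjusted p = 0.0768 and 0.0707).

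Anxa9, whose calcium sites are degenerate, differed by 0.24, Anxa8 by -0.08 and the gut annexin Anxa13 by -0.38. All 3 were dim, with no sample above 7.04, and the technical arrays of Anxa13 differed by 0.53 on average, against a median of 0.071 over the tested genes of both families. A second probe of Anxa13 was above background on 0 of 6 arrays in each group. Anxa10, a stomach annexin, was above background on 3 of 6 undifferentiated and 2 of 6 treated arrays.

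Among the S100 genes the clearest change was that of S100g, the small calbindin that carries calcium through intestinal cells. It was at 6.30, 6.19 and 6.53 before and 7.83, 8.89 and 7.67 after retinoic acid, above background on all 12 arrays. All treated samples lay above the untreated ones, and replicate 2 stood about 1 log2 unit above the other treated samples. The rise was 1.79 ± 0.31 (SE; limma, adjusted p = 0.00388), or 3.45-fold; it was 1.41 without retinoic acid replicate 2, and 2.87 with 1 in place of 50 added before log2. S100g lies on the X chromosome, outside the cluster.

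**Figure D3:**
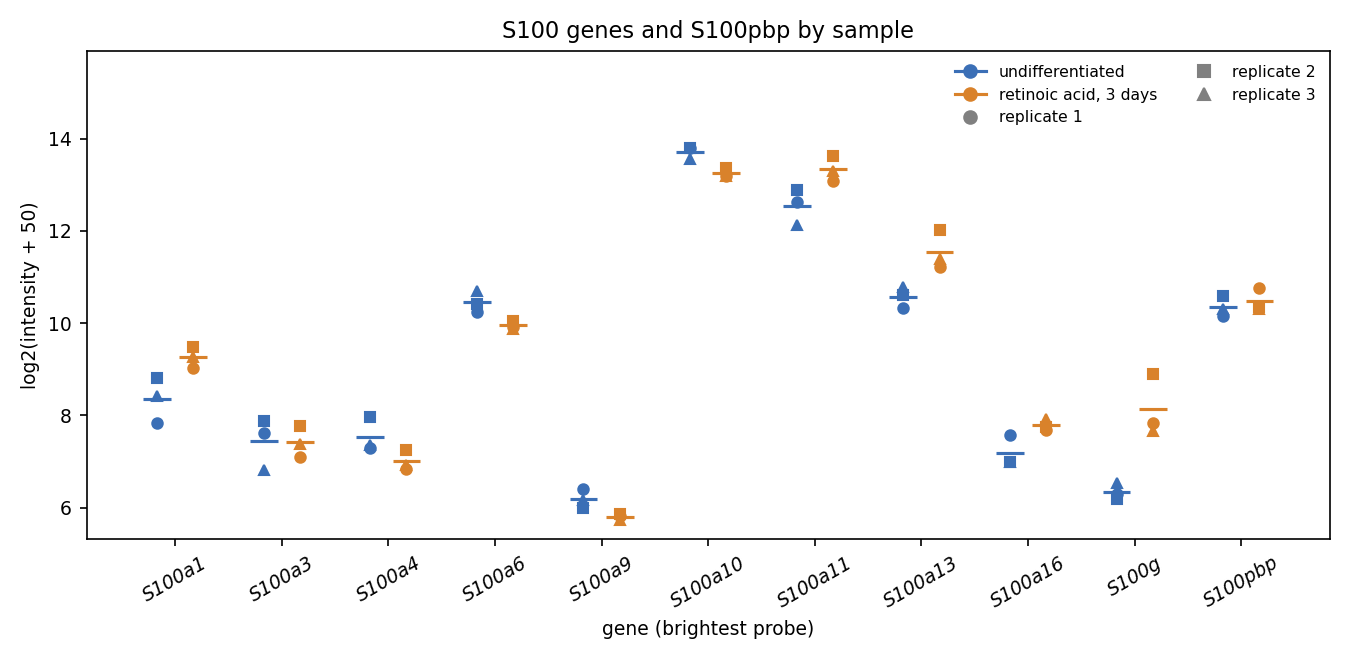
Log2(intensity + 50) of the 10 tested S100 genes and S100pbp in each biological sample (technical arrays averaged); short lines are group means and symbols are replicates. S100g, S100a1, S100a11 and S100a13 are higher after treatment and S100a10 lower, and the gap between the groups is widest in S100g.

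S100a1, best known from heart muscle, went from 7.83, 8.80 and 8.43 to 9.03, 9.49 and 9.27, a rise of 0.91 ± 0.26 (SE; limma, adjusted p = 0.0307). The highest untreated sample lay just below the lowest treated one. S100a13, which helps release FGF1 from cells, went from 10.32, 10.60 and 10.79 to 11.21, 12.01 and 11.39, a rise of 0.97 ± 0.24 (SE; limma, adjusted p = 0.0175). Its treated replicate 2 stood above the rest. The call of S100a1 was lost without any single sample except undifferentiated replicate 2 (changes of 0.65 to 1.14), and that of S100a13 without undifferentiated replicate 1 (0.85; limma, adjusted p = 0.066) and when arrays were scaled to their 75th percentile (0.75; limma, adjusted p = 0.0528) or median (0.78; limma, adjusted p = 0.0692).

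S100a1 and S100a13 are neighbours that start back to back, with 104 bases between their starts in RefSeq's table (chr3:90514331-90514434, GRCm38.p6, plus strand). They are shown because the 2 genes rose by like amounts; none of the motifs named above was found in them, and they hold 3 CpG.
Between S100a1 and S100a13: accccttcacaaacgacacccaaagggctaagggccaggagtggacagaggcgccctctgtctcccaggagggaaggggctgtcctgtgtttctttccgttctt

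S100a11 (calgizzarin), the partner of Anxa1, went from 12.62, 12.88 and 12.13 to 13.07, 13.62 and 13.30, a rise of 0.79 ± 0.24 (SE; limma, adjusted p = 0.0361). The untreated replicate 2 came close to the lowest treated sample. The rise was 0.40 (limma, adjusted p = 0.308) under 75th percentile scaling and 0.44 under median scaling. Its call was also lost when replicate 1 or 3 of the undifferentiated group, or replicate 2 or 3 of the treated group, was left out (0.58 to 0.83). A probe for Gm12854, a predicted S100a11-like transcript, went from 12.90, 13.44 and 12.72 to 13.46, 14.02 and 13.76 (0.73 ± 0.24, SE; limma, adjusted p = 0.048), and this call was lost in 15 of 23 alternatives, with 0.31 under 75th percentile scaling. The share of either signal that comes from the other transcript cannot be told apart here.

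S100a10, the partner of Anxa2, lies next to S100a11 on the chromosome and was called in the other direction. It was at 13.80, 13.79 and 13.56 before and 13.19, 13.37 and 13.19 after. The groups did not overlap, but untreated replicate 3 and treated replicate 2 were close. The fall was -0.47 ± 0.15 (SE; limma, adjusted p = 0.0493), or 1.38-fold, beside the 2.50-fold rise of Anxa2. It was -0.87 with 75th percentile and -0.84 with median scaling, and the call was lost without any single sample except undifferentiated replicate 3 (-0.54 to -0.42).

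Of the 5 S100 genes tested and not called, 4 had groups that did not overlap. Over all genes tested, called or not, the groups did not overlap in 46.6%. S100a16, which many cell types express, went from 7.58, 6.98 and 6.99 to 7.67, 7.76 and 7.93, with undifferentiated replicate 1 close to the treated samples. Its difference was 0.60 ± 0.20 (SE; limma, adjusted p = 0.0552), and it was called without undifferentiated replicate 1 (0.80; limma, adjusted p = 0.0187).

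S100a6 (calcyclin) went from 10.23, 10.42 and 10.69 to 9.92, 10.05 and 9.88. S100a4 (metastasin), a fibroblast marker, went from 7.29, 7.96 and 7.36 to 6.84, 7.25 and 6.92, a difference of -0.53 ± 0.22 (SE; limma, adjusted p = 0.108). The 3 treated values of each gene lay just below the untreated ones. S100a6 was called lower in 4 of 23 alternatives, among them 75th percentile scaling (-0.62; limma, adjusted p = 0.0275) and a fit over single arrays that takes samples as random blocks (-0.50; limma, adjusted p = 0.0195).

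S100a9, a subunit of calprotectin in neutrophils, was above background on 4 of 6 undifferentiated and 0 of 6 treated arrays, so it entered the test only through the undifferentiated group and its treated level is no more than a bound. Its difference was -0.38 (limma, adjusted p = 0.109) and moved with the value added before log2: it was -0.90 with 10 added (limma, adjusted p = 0.0247) and -1.46 with 1 added (limma, adjusted p = 0.0204), both called lower, as it was at -0.38 with a variance trend (limma, adjusted p = 0.0459). S100a3, known from the hair cuticle, was at 7.63, 7.88 and 6.81 before and 7.10, 7.76 and 7.37 after, with groups that overlapped (-0.02 ± 0.30, SE). S100pbp was at 10.14, 10.58 and 10.29 before and 10.75, 10.35 and 10.31 after (0.13 ± 0.19, SE), with -0.18 on a second probe.

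The S100 genes too dim to test included those of skin, glia and myeloid cells. S100a8, the calprotectin partner of S100a9, was above background on 0 of 12 arrays. S100b, a marker of glia, was above it on 3 of 6 undifferentiated and 0 of 6 treated arrays, S100a7a, related to psoriasin, on 2 and 0, S100a14 on 1 and 1, and S100a5 on 2 and 3. None of the 6 untested genes of both families was called when all genes were fitted with no filter on dim probes; in limma their adjusted p ran from 0.121 to 0.976, and 1 (S100a7a, -0.38) had an unadjusted p under 0.05.

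**Figure D4:**
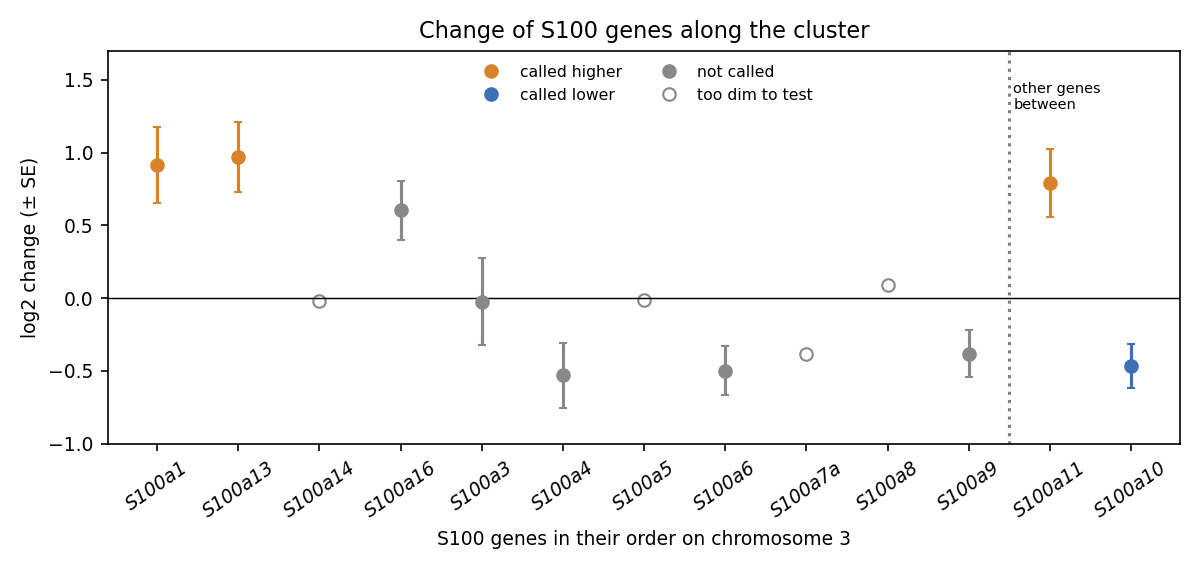
Log2 change (± SE, 3 samples per group) of the 13 S100 genes of chromosome 3 that the array names as such, in their order on the chromosome; open circles were too dim to test. The rises sit at the left end (S100a1 0.91, S100a13 0.97) and in S100a11 (0.79), the values from S100a4 to S100a9 lie at or below 0.09, and S100a10 is next to S100a11 with the opposite sign.

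Along chromosome 3 neighbours thus did not all move alike. From S100a1 to S100a9 the genes follow each other with no other protein-coding gene between them, and S100a11 and S100a10 come 54 protein-coding genes after S100a7l2. The 2 called genes of the first stretch are its first 2. Anxa5 and Anxa9 lie on the same chromosome but 318 genes before S100a1 and 43 after S100a10. Of 35 other genes listed for this region, 31 were on the array and 16 were tested. Of these 4 rose and 0 fell (0 also at an unadjusted p under 0.05 in limma), with a median change of 0.12. Over all genes tested 18.7% were called higher and 13.6% lower. The largest rises were those of the fatty acid transport protein Slc27a3 (1.60 ± 0.31, SE), the hair follicle protein Tchh (1.46) and the zinc transporter Slc39a1 (0.76, but 0.04 on a second probe). The other 15 on the array were too dim to test, among them Flg, Hrnr and Rptn.

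How far single samples decide these calls differed between genes. Anxa1, Anxa2, Anxa3, Anxa5, Anxa11 and S100g stayed called, with the same sign, in all 6 fits that left out a sample. Of the S100 genes, 2 were called higher when any of 4 samples was left out: S100g and S100a16 without undifferentiated replicate 1, and S100g and S100a13 without undifferentiated replicate 3 or treated replicate 2 or 3. In limma 0 S100 genes were called lower when undifferentiated replicate 1 or 2 or any 1 retinoic acid sample was left out, with 0 to 3 at an unadjusted p under 0.05. Over all genes 2007 to 3147 were called higher and 1228 to 2108 lower in these 6 fits, against 2871 and 2083 with all samples.

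**Figure D5:**
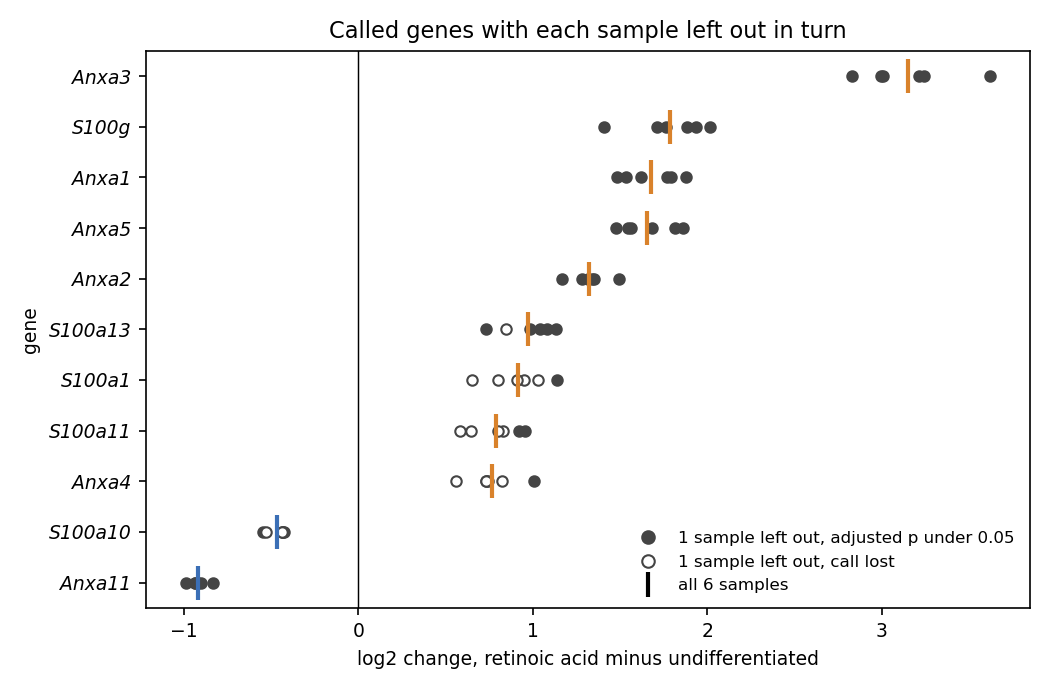
Log2 change of the 11 called genes with all 6 samples (vertical marks) and with each sample left out in turn (points, filled where the call held at an adjusted p under 0.05 in limma). The 6 points of Anxa1, Anxa2, Anxa3, Anxa5, Anxa11 and S100g are all filled; Anxa4, S100a1 and S100a10 have 1 filled point each.

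In 17 of the 22 tested genes the 3 values of one group lay all above or all below those of the other, 10 of them higher after retinoic acid and 7 lower. Over all genes tested, the groups did not overlap in 46.6%, made up of 25.7% higher and 20.8% lower. The 6 such genes that were not called were S100a4, S100a6, S100a9 (at background after treatment), S100a16, Anxa7 and Anxa13.

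Partners and receptors of these proteins were listed apart. Of 33 on the array, 25 were tested, 9 rose, 3 fell and 13 were not called, with a median change of 0.36. The shares over all genes tested were 18.7% higher and 13.6% lower, with a median of 0.0035. Plat, the plasminogen activator that the Anxa2 and S100a10 complex gathers, rose by 4.09 ± 0.19 (SE; limma, adjusted p = 1.2e-05). The largest rises after it were those of the transglutaminase Tgm2 (2.79; 0.55 on a second probe, not called) and the calpain Capn2 (2.17), a calcium-activated protease. Fkbp5 (-1.33), a co-chaperone of Hsp90, and the ferlin Myof (-1.15), which works in membrane repair, were among the genes that fell. Without undifferentiated replicate 2, 5 of these genes were called lower, beside 2108 of all genes (2083 with all samples). The receptors Ager, Tlr4, Fpr1 and Fpr2 were too dim to test.

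Other EF-hand proteins and proteins with C2 domains were counted in the same way. Of 44 EF-hand genes outside the S100 family 38 were tested, 13 rose, 2 fell and 23 were not called, with a median of 0.29. Without retinoic acid replicate 3, 8 were called higher, beside 2007 of all genes (2871 with all samples). The myosin light chain Myl9 rose by 4.20, Rcn3, a calcium-binding protein of the secretory pathway, by 2.34 and Cib2 by 1.97, while Calml4 (-1.65) and the mitochondrial Efhd1 (-0.61) fell. The call of Efhd1 was lost when replicate 1 of either group (-0.57 both times) or replicate 3 of the treated group (-0.61) was left out. C2 domains are another fold that can bind calcium and membranes, though not all of them bind calcium. Of 37 genes on the array for proteins with C2 domains, 30 were tested, 7 rose, 4 fell and 19 were not called, with a median of 0.09. Both lists stand beside 18.7% of all genes tested called higher and 13.6% called lower. The copines Cpne2 (1.90) and Cpne3 (1.22) and the synaptotagmin Syt11 (1.49; 0.28 on a second probe) rose, and Cpne9 (-1.52), Cpne5 (-1.48; 0.39 on a second probe) and Myof fell.

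Several annexins and S100 genes are abundant in fibroblasts, epithelia or myeloid cells, and markers of some of these cells moved too. In bulk RNA, more cells of a type and more RNA per cell cannot be told apart. The marker counts below stand beside 18.7% of all genes tested called higher and 13.6% called lower. The sums below add intensities of different probes, so a gene's share of a sum is one of intensity and not of transcripts. Of the 8 ES cell markers 7 fell, and all 8 were above background in both groups. Dppa5a, which was not called (-0.32), was brighter than 40000 on 8 arrays, so its change may look smaller than it was. Of 10 tested trophoblast and simple epithelium markers 6 rose and 1 fell, and their summed intensity was 4553 to 6529 in undifferentiated and 56060 to 63196 in treated samples (Elf5 was above background on 0 arrays). Krt18, Krt8 and Krt19 made up 93.7% of the treated sum, and Tfap2c was the gene that fell (-3.08). Of 9 tested fibroblast markers 5 rose and 1 fell (6044 to 14951 against 25786 to 32400). Of the treated sum, 90.7% came from Acta2, which was not called (0.91), and Tagln, which rose (5.25). Of 10 endoderm markers 6 rose and 0 fell, also at an unadjusted p under 0.05 in limma (3561 to 4461 against 12657 to 16874). The part of these cells in the changes of the annexins and S100 genes was not tested. Of 5 tested myeloid markers 1 rose and 1 fell (498 to 696 against 414 to 475), with Lyz2 above background on 0 arrays. Of 6 tested keratinocyte markers 0 were called in limma, and 0 at an unadjusted p under 0.05 (6420 to 11784 against 7414 to 11881), and of 5 tested glia markers 1 rose and 1 fell (806 to 1491 against 1416 to 1788; Olig2 on 0 arrays).

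The median net intensity of an array lay between 37.4 and 96.6, and replicate 3 was brightest in both groups. Background limits lay between 8.50 and 51.6, with 53.8% to 85.0% of probes brighter than the limit of their array. None of the annexin or S100 probes used here was brighter than 40000. The table of technical array 2 of undifferentiated replicate 2 names the sample's other technical array in its header; without this array the call of Anxa4 was lost (0.74; limma, adjusted p = 0.0517).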

How the data were processed

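The 12 deposited scanner tables hold 1 net mean intensity per spot on a linear scale, per the file headers, so background had already been taken off. How this was done and the genome build behind the probes are not given in the sources used here, and the tables carry no detection or saturation flags. For the authors' own values, R 2.15.0 and limma are named in the submitters' processing notes. The authors also deposited processed intensities for 41173 of the 41174 probes, which had the same order within each array as the scanner values (rank correlation 1) and served as an alternative.

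The 94 control rows were left out. Intensities were quantile-normalized, 50 was added and log2 taken. A probe was above background if it was brighter than 95% of the 27 negative control spots on the same array, and a gene entered the test if its brightest probe did so on at least 4 of 6 arrays of either group. Accessions, symbols and neighbours came from RefSeq (GRCm38.p6): 27479 probes were named by accession, 5478 by symbol, 671 by an older symbol, 1 by its description and 1268 by the array's own name. Technical arrays were averaged, and 3 samples were compared with 3 in limma 3.58.1 (R 4.3.3, two-sided, no covariates). The fit was tested on simulated data with the means and SDs of these 15322 genes, 200 of which were changed in each run. Of genes changed 2-fold 38.6% were called, of those changed 4-fold 82.4% and of unchanged ones 0.0489%. In the data 32.3% of all genes tested were called, far more than were changed in a run, so these shares need not hold there. Figures were drawn with matplotlib 3.10.9.

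Members, lists, tests and alternatives were chosen with earlier results of these data known. All members are accounted for, and of each other list up to 3 called genes per direction whose groups did not overlap are named, by size of change; 1 of them is not reported here. Alternatives were other scalings, filters, added values, probe choices, technical arrays, array or replicate blocks, a variance trend, a call limit of 0.01, the authors' intensities, and fits without 1 array or 1 sample.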

Additional observations from a re-analysis of the deposited data

How the results depend on the processing

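Across 23 alternatives the rises of Anxa1 (1.48 to 1.88), Anxa2 (1.04 to 1.49), Anxa5 (1.48 to 1.86) and S100g (1.41 to 2.87) and the fall of Anxa11 (-1.13 to -0.83) kept their direction and call, as did the rise of Anxa3 (1.57 to 3.62) in the 22 that could test it. Not all of these could move a change. For genes with 1 probe the filters, probe choices, blocks, variance trend and call limit altered only p or its limit (S100g at 1.79 in each). The calls of Anxa4 and S100a10 were each lost in 13 alternatives, that of S100a11 in 10, S100a1 in 6 and S100a13 in 4. The calls over all genes moved too, from 2871 higher and 2083 lower of 15322 in the main fit. With second brightest probes 3 annexins, 5 partners and 3 C2 genes were called higher, and 0 S100 genes, 1 EF-hand and 2 C2 genes lower (1967 higher and 1708 lower of all 13655). With the mean of a gene's probes 2 annexins, 2 S100 genes and 1 EF-hand gene were lower (2192 of all genes). With 75th percentile scaling 2 S100 genes were higher and 2 lower, as was 1 gene near the cluster (2435 of all genes higher and 2633 lower). An adjusted p under 0.01 left 1 S100 and 7 EF-hand genes higher, and 0 S100, 1 EF-hand and 2 C2 genes lower (1784 of all genes higher and 1115 lower). With all 12 arrays required above background, 0 S100, 1 EF-hand and 2 C2 genes were lower and 2 genes near the cluster higher (2061 higher and 1737 lower of all 11978). With each probe by itself 0 S100 genes were lower (3052 of all 26587 probes). With 12 arrays and the sample as a random block or with a variance trend 2 were lower (2383 and 2149 of all genes). Leaving out 1 sample gave 2 to 4 S100 genes higher and 0 to 1 lower, 3 to 5 partners lower, 8 to 12 EF-hand genes higher and 1 to 3 lower. Over all genes 2007 to 3147 were then higher and 1228 to 2108 lower. Where 0 S100 genes were called lower, 0 to 4 had an unadjusted p under 0.05 in limma. The S100 genes had 1 probe each, so probe choice left their changes as they were (S100a10 at -0.47 throughout). Only their p moved, with the other genes or probes fitted beside them. The cause of the other shifts was not tested.

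Signs changed for 3 genes that were not called: S100a3 was at 0.011 and 0.039 with 75th percentile and median scaling and at -0.34 to 0.19 with 1 sample left out; S100pbp at -0.020 with 75th percentile scaling, -0.026 with the mean of its probes, -0.18 on its second probe and -0.0086 to 0.25 with 1 sample left out; and Anxa6 at -0.56 to 0.10 with 1 sample left out. Cpne5, called lower on its brightest probe (-1.48), was at 0.39 on its second probe.

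The replicate numbers were not taken to pair the samples: the deviations of same-numbered samples correlated at -0.06, 0.22 and 0.07, and undifferentiated replicate 1 correlated best with retinoic acid replicate 3 (0.26), although the arrays of replicate 3 were brightest in both groups. With the number as a replicate block, 4 annexins rose and 1 fell, 4 S100 genes rose and 1 fell, and 2850 of all genes were higher and 2040 lower. Anxa4 (limma, adjusted p = 0.0596) and S100a10 (0.0612) were then not called, and S100a4 was (-0.53, 0.0453).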

Other observations

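A further S100 gene of the cluster, S100a7l2, carries another name on the array and so lay outside the rule; it was noticed after its values were seen. It was at 7.37, 7.93 and 7.82 in undifferentiated replicates 1, 2 and 3 and between 6.85 and 7.08 in the 3 samples given retinoic acid. The groups did not overlap, and the difference was -0.73 ± 0.19 (SE; limma, adjusted p = 0.02). The call was lost in 5 of 23 alternatives: with technical array 1 only (-0.60; limma, adjusted p = 0.073), with 12 arrays and the sample as a random block (limma, adjusted p = 0.141), at a limit of 0.01, and without retinoic acid replicate 1 or 3, with a range of -0.90 to -0.62 over the fits that left out 1 sample.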
